A study of Schizosaccharomyces pombe with 5 samples.

Results

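The subject is the mRNAs of the 26S proteasome in fission yeast (Schizosaccharomyces pombe) and their recovery with Slr1p, a relative of the RNA-binding protein LARP1. Members were the protein-coding genes whose annotated product contains the word proteasome but not the word chaperone. There were 41 such genes among the 6727 genes counted: 14 subunits of the 20S core, 11 genes of the base, 10 of the lid and 6 other regulators. All 41 passed the filter on low counts.

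Counts came from RNA immunoprecipitation and sequencing of cells of strain yAS99, labelled WT, that were grown in YES medium at 32 °C and cross-linked with formaldehyde. RNA brought down with an antibody against Slr1p (AB2756) gave 2 libraries. They were set against 1 library brought down with non-immune rabbit IgG, and against 2 libraries of total RNA input. All 5 libraries shared the genotype and the cross-link. Per the labels' protocols, precipitated RNA was freed with proteinase K and SDS and by reversing the cross-link, while input was extracted with hot phenol. An effect of that extraction and an effect of precipitation therefore cannot be told apart in any comparison with input. The IgG library had no replicate.

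The proteasome degrades proteins that carry ubiquitin chains. Its 20S core is a barrel of stacked rings, with alpha subunits in the outer rings and beta subunits, some of which are proteases, in the inner ones. The 19S particle on its end has a base, with a ring of Rpt ATPases that unfold substrates and Rpn scaffolds and ubiquitin receptors, and a lid, which holds the deubiquitinase Rpn11. Each particle contains fixed numbers of its subunits, and in animals LARP1 is known for binding mRNAs whose 5′ end starts with pyrimidines.

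The 5′ ends of the members are shown here because of that known preference of LARP1. Annotated 5′ untranslated regions (UTRs) were available for 38 members. Of these, 3 (7.89%) had 5 or more pyrimidines in a row starting at base 1, 2 or 3, against 10.5% of the 4475 tested protein-coding genes with an annotated 5′ UTR. The 3 were all 20S core genes. Genes with such a run are called pyrimidine-start genes below, although in these 3 the run begins at base 2 or 3, after purines. The first 20 bases of each annotated transcript follow, 5′ to 3′, from the RefSeq annotation of assembly ASM294v3, with the pyrimidine run in capitals.
pre8: gaTCCTTTaccaagcaccac
pre1: aCCTTTaccaaaccaccatc
pre3: aaCCTTTCaccaaacttctg
These lie at chrIII:1778094-1778113 (pre8, plus strand), chrI:391181-391200 (pre1, minus strand) and chrII:3117646-3117665 (pre3, plus strand), all within 5′ UTRs. An annotated end need not be the end used in these cells.

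Most members had short annotated 5′ UTRs. Their median 5′ UTR was 31.0 bases, against 97.0 bases over the 4475 genes, and 63.2% of members had one under 40 bases, against 23.9%. The letters ACCA, a word picked out after the sequences had been looked at and searched on the transcript strand alone, stood in the first 20 bases of 24 of 38 members (63.2%). The share was 31.7% over the 4475 genes and 35.7% over the 1069 of them whose 5′ UTR is under 40 bases. It was 10 of 14 for the core, 8 of 11 for the base, 4 of 8 for the lid and 2 of 5 for the other regulators. A word of 4 letters is found by chance in many windows, and a match is no binding site. Starts of 2 core genes, 3 base genes and 1 lid gene follow as examples, with the letters ACCA in capitals.
scl1: ataaacctactactACCAac
pre10: aactACCACCAacataagca
rpt1: gaACCAactacaatgccacc
rpt3: aactACCAcatacgcaaaat
rpn2: ACCAacaacgaaacACCAcc
rpn3: actACCAagtACCAgtatca
In the same assembly they lie at chrII:957634-957653 (scl1, plus), chrIII:990692-990711 (pre10, plus), chrII:4343361-4343380 (rpt1, minus), chrIII:2098847-2098866 (rpt3, minus), chrII:3322893-3322912 (rpn2, minus) and chrII:712490-712509 (rpn3, plus). The windows of rpt1 and rpt3 run into the coding sequence, since their 5′ UTRs have 12 and 18 bases.

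Gene counts totalled 63392249 and 65859940 in the Slr1p libraries, 12882920 in IgG, and 64236988 and 62802923 in input. Mitochondrially encoded mRNAs took 4.73% of IgG counts and at most 0.00154% of any other library, so the IgG library stood apart in its makeup. The 41 proteasome genes together took 0.597% and 0.537% of the Slr1p counts, 0.387% of the IgG counts, and 0.612% and 0.669% of the input counts. Leaving out fub2, a member held at least 1311 counts in each Slr1p library, 170 in IgG and 663 in each input library. The gene fub2 had 32 and 24 counts in the Slr1p libraries, 7 in IgG and 11 in each input library, so its values rest on few reads. Levels are given in CPM, the counts of a gene scaled to the TMM-adjusted size of its library. Over the members, the median coefficient of variation between replicates was 2.24% with Slr1p and 6.65% in input.

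Proteasome mRNAs lay mostly between IgG and input. Slr1p libraries exceeded IgG for most members of the core and the lid, whereas relative to input most core members were lower and the base and the lid were divided. In 24 of 41 members both Slr1p libraries lay above IgG and below both input libraries, a pattern held by 18% of the 6376 genes tested. In 30 of 41 members the IgG library was the lowest of the 5, which was so for 37.5% of all genes.

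**Figure D1:**
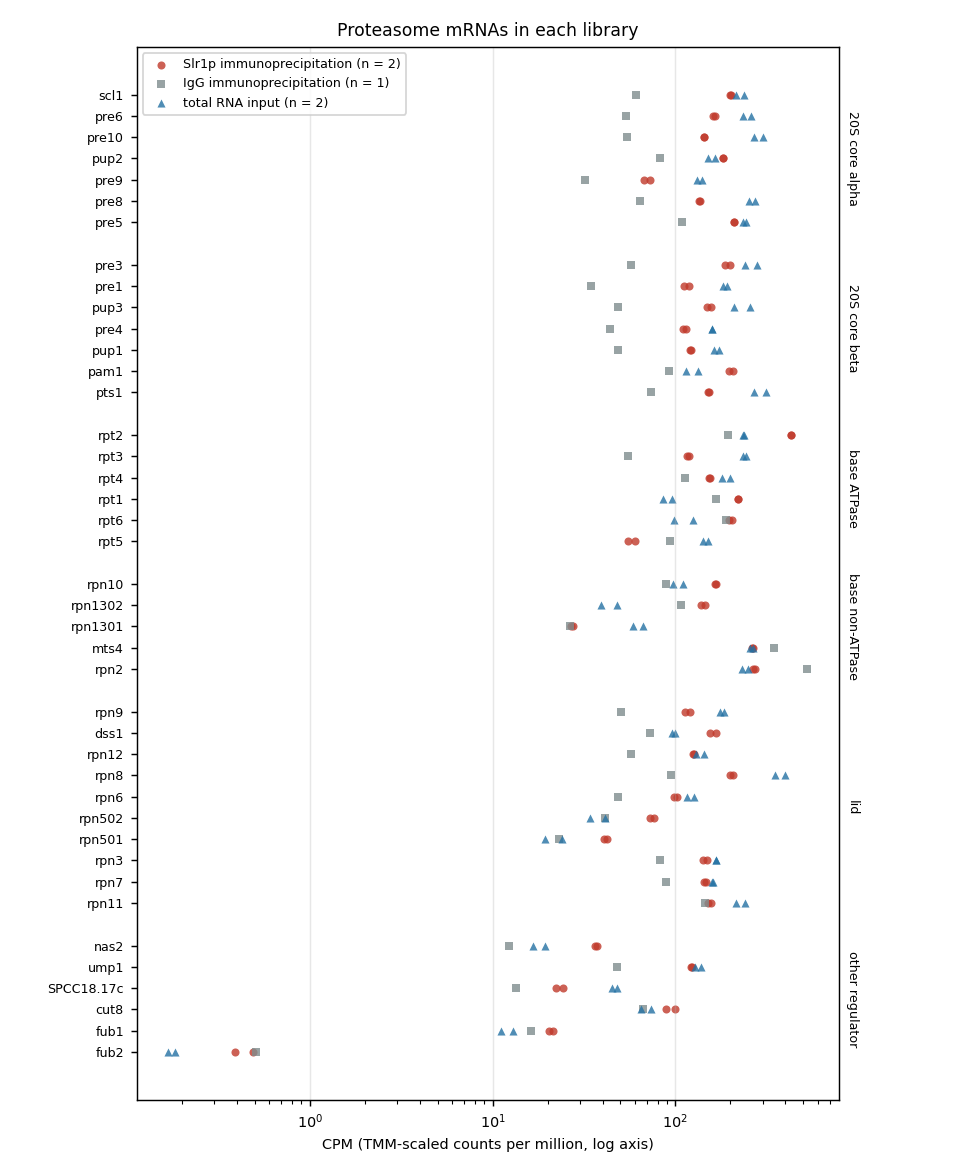
Level of each proteasome mRNA in each of the 5 libraries (CPM, log axis), with genes in rows by class and ordered within a class by their difference from IgG. Red circles are the 2 Slr1p libraries, grey squares the IgG library and blue triangles the 2 input libraries; for most core genes the grey square lies at the left and the triangles at the right, with the circles between them.

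The comparison with IgG asks which mRNAs exceeded the background of the precipitation. By edgeR's quasi-likelihood test, with an adjusted p under 0.05 over all genes, 33 of 41 members were higher with Slr1p than with IgG (80.5%) and 3 were lower, where 34.0% of all tested genes were higher and 32.3% lower. The median log2 fold change was 1.05 over the members and 0.07 over all genes. The control was 1 library, so its own spread was not measured.

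All 14 core genes were higher than in IgG, with log2 fold changes between 0.93 and 1.75 and a median of 1.33. Among the alpha subunits, which form the outer rings and the gate, the mRNA of scl1 (SPBC646.16, subunit alpha 1) stood at 198.0 and 200.9 CPM in the Slr1p libraries and 60.7 CPM in IgG. Its log2 fold change was 1.72 (SE 0.16, edgeR adjusted p = 2.71e-07), the largest difference among the alpha subunits. The smallest was that of pre5 (SPAC6G10.04c, alpha 6), at 208.9 and 208.5 CPM with Slr1p against 109.3 CPM in IgG (log2 0.93, SE 0.15, adjusted p = 7.12e-05). Both Slr1p libraries lay above IgG in each case, and the other alpha genes fell between these 2 values.

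Of the beta subunits, pre3 (SPBC4C3.10c), for the beta 1 protease subunit, had the largest difference. It stood at 186.8 and 198.8 CPM with Slr1p and 57.4 CPM in IgG (log2 1.75, SE 0.17, adjusted p = 3.85e-07). The gene pre1 (beta 4) was next at 1.74, with 112.0 and 119.0 CPM against 34.5 CPM. The lowest was pts1 (SPAC4A8.13c), for the beta 5 subunit that carries the chymotrypsin-like protease activity, at 152.7 and 151.8 CPM with Slr1p and 73.3 CPM in IgG (log2 1.05, SE 0.17, adjusted p = 4.28e-05). The 3 genes with a pyrimidine start, pre8, pre1 and pre3, were at 1.07, 1.74 and 1.75, so pre1 and pre3 had the largest differences of the core and pre8 was in its lower part. That order changed after adjustment of each library for its trend with transcript length and GC. The gene pre8 was then the highest of the core at 1.435, with pre3 at 1.071 and pre1 at 0.85, below the core median of 0.895. Over the 471 pyrimidine-start genes, 34.2% were higher than in IgG, with a median of -0.011.

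The base was divided. Of its 6 ATPase genes 4 were higher than in IgG, 1 was lower and 1 was not called, and 2 were higher when either Slr1p library was dropped or when counts were scaled by library totals alone. The mRNA of rpt2 (SPBC4.07c) had the largest difference, at 427.0 and 427.7 CPM with Slr1p and 194.5 CPM in IgG (log2 1.14, SE 0.16, adjusted p = 1.60e-05), followed by rpt3 at 1.09. The mRNA of rpt5 (SPAC3A11.12c) was lower, at 60.5 and 55.4 CPM with Slr1p and 93.9 CPM in IgG (log2 -0.70, SE 0.15, adjusted p = 5.97e-04). The gene rpt6 did not differ by the test, at 195.6 and 203.2 CPM against 189.5 CPM (log2 0.07, adjusted p = 0.707). The smaller rises of rpt1 (0.40) and rpt4 (0.43) did not pass when Slr1p replicate 1 was dropped (adjusted p = 0.248 for rpt1 and 0.206 for rpt4) or when replicate 2 was (0.242 and 0.211). Fits that drop a Slr1p library rest on the spread of the input libraries, with 1 residual degree of freedom. Those that drop an input library rest likewise on the spread of the Slr1p libraries, which was the smaller.

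Among the non-ATPase genes of the base, the ubiquitin receptor gene rpn10 (SPAC637.10c) was highest, at 165.9 and 164.9 CPM with Slr1p and 89.0 CPM in IgG (log2 0.89, SE 0.16, adjusted p = 1.22e-04). After adjustment of each library for its trend with transcript length and GC, rpn10 was at 0.17 and not called (adjusted p = 0.321). The large scaffold genes were lower. The mRNA of rpn2 (SPBC17D11.07c) stood at 271.3 and 266.5 CPM with Slr1p and 522.5 CPM in IgG (log2 -0.96, SE 0.15, adjusted p = 4.09e-05). The gene mts4, which encodes Rpn1, was at -0.38 (adjusted p = 0.0344), and it did not pass when Slr1p replicate 1 or 2 was dropped (-0.41 and -0.39, adjusted p = 0.229 and 0.266). These 2 are also the longest members, at 3219 and 2935 bases, and after the adjustment for length and GC their values were 0.14 and 0.57.

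Of the lid, 9 of 10 genes were higher than in IgG and 0 lower, with a median log2 fold change of 0.95. The highest was rpn9 (SPAC607.05), at 121.0 and 112.3 CPM with Slr1p and 50.4 CPM in IgG (log2 1.21, SE 0.16, adjusted p = 7.16e-06). It was followed by dss1, a small lid subunit also known as Sem1, at 1.15, and dss1 was not called after the adjustment for length and GC (0.31, adjusted p = 0.0734). The exception was rpn11 (SPAC31G5.13), the deubiquitinase of the lid, at 157.2 and 151.8 CPM with Slr1p and 144.7 CPM in IgG (log2 0.09, SE 0.15, adjusted p = 0.595). The other regulators had 4 of 6 higher and 0 lower, led by nas2 (SPAC2H10.02c), a factor of base assembly, at 37.3 and 36.6 CPM with Slr1p and 12.3 CPM in IgG (log2 1.58, SE 0.19, adjusted p = 3.02e-06). The maturation factor gene ump1 was at 1.34. The gene cut8, for a factor that tethers the proteasome to the nucleus, was at 0.50, and it did not pass when Slr1p replicate 1 or 2 was dropped (0.39 and 0.57, adjusted p = 0.213 and 0.0593). Of the PI31-related genes, fub1 was at 0.36 (adjusted p = 0.108) and fub2 at -0.21 (adjusted p = 0.790).

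The comparison with input asks which mRNAs were over-represented relative to their abundance in the cell. Here 13 of 41 members were higher (31.7%) and 19 lower (46.3%) by the same test, where 35.0% of all tested genes were higher and 34.2% lower. The members' shares were thus near those of all genes on the higher side and above them on the lower side, and the median was -0.19 over the members and 0.03 over all genes. Both Slr1p libraries lay below both input libraries in 25 members and above both in 15, against 41.3% and 43.9% of all genes.

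Most core mRNAs were lower than in input. Of the 14 core genes 10 were lower, 1 was higher and 3 were not called, with a median of -0.55. The lowest alpha gene was pre10 (SPCC1795.04c, alpha 7), at 143.6 and 142.7 CPM with Slr1p against 301.6 and 270.7 CPM in input (log2 -0.999, SE 0.12, adjusted p = 2.45e-06). The genes pre8 (-0.96) and pre9 (-0.95) were close to it. The highest alpha gene was pup2 (SPAC323.02c, alpha 5), at 183.3 and 182.8 CPM with Slr1p and 150.1 and 164.9 CPM in input, and its difference did not pass the test (log2 0.22, SE 0.12, adjusted p = 0.113). In pup2 the Slr1p libraries lay above both input libraries. Without input replicate 2 its value was 0.29, in a fit whose spread came from the Slr1p pair alone.

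Beta subunit mRNAs were lower in 6 of 7 cases. The largest fall was that of pts1, at 152.7 and 151.8 CPM with Slr1p and 315.1 and 268.1 CPM in input (log2 -0.94, SE 0.13, adjusted p = 6.96e-06). The exception was pam1 (SPAC22F8.06, beta 6), at 196.3 and 205.5 CPM with Slr1p and 115.1 and 133.0 CPM in input (log2 0.70, SE 0.12, adjusted p = 1.04e-04). The pairs of libraries did not overlap in either gene. The falls of pup1 (-0.48) and pre3 (-0.43) did not pass when Slr1p replicate 1 was dropped (-0.51 and -0.41, adjusted p = 0.0636 and 0.155) or when replicate 2 was (-0.48 and -0.48, adjusted p = 0.0799 and 0.0901). That of pre4 (-0.50) did not pass when replicate 2 was dropped (-0.48, adjusted p = 0.0817). The pyrimidine-start genes pre8, pre1 and pre3 were all lower than in input, at -0.96, -0.69 and -0.43, where 43.9% of the 471 pyrimidine-start genes were lower.

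The 6 ATPase mRNAs separated into 3 that were higher than in input and 3 that were lower, although their proteins form 1 ring. The highest was rpt1 (SPBC16C6.07c), at 220.0 and 221.5 CPM with Slr1p and 85.6 and 96.2 CPM in input (log2 1.28, SE 0.12, adjusted p = 1.65e-07). The genes rpt2 (0.85) and rpt6 (0.84) also rose. The lowest was rpt5, at 60.5 and 55.4 CPM with Slr1p and 140.9 and 150.5 CPM in input (log2 -1.33, SE 0.12, adjusted p = 9.83e-08). The gene rpt3 fell as well (-1.03), while rpt4 (-0.31) did not pass when either Slr1p library was dropped (-0.32 for both, adjusted p = 0.261 for both). Apart from rpt2, the same directions were called in IgG against input. There rpt1 (0.88) and rpt6 (0.76) were higher, rpt5 (-0.63), rpt4 (-0.74) and rpt3 (-2.12) lower, and rpt2 (-0.28) not called. The rpt5 gene lies wholly opposite a counted noncoding RNA, SPNCRNA.908, which stood at 2.62 and 3.20 CPM with Slr1p, 1.67 CPM in IgG, and 2.94 and 2.33 CPM in input.

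The genes for the ubiquitin receptor Rpn13 differed from input in opposite directions. The mRNA of rpn1302 (SPCC16A11.16c) rose more than any other member, at 145.8 and 138.8 CPM with Slr1p and 39.2 and 48.1 CPM in input (log2 1.71, SE 0.13, adjusted p = 1.63e-08). Its copy rpn1301 (SPBC342.04) was lower, at 27.0 and 27.5 CPM with Slr1p and 66.5 and 59.0 CPM in input (log2 -1.20, SE 0.12, adjusted p = 3.32e-07), second only to rpt5 among the falls. Of the reads of the pair, not scaled by length, rpn1302 took 84.4% and 83.5% in the Slr1p libraries, 80.2% in IgG and 37.1% and 44.9% in input. Per kilobase of transcript, rpn1301 was the higher of the pair in both input libraries (43.4 and 38.5 CPM, against 30.04 and 36.8 CPM for rpn1302). The rpn1302 share was high in both kinds of precipitation, and against IgG rpn1302 stood at 0.40 and rpn1301 at 0.04 (adjusted p = 0.0360 and 0.852). The rpn1302 difference from IgG did not pass when Slr1p replicate 1 or 2 was dropped (0.34 and 0.42, adjusted p = 0.279 and 0.171). The proteins, of 291 residues (Rpn1301) and 388 residues (Rpn1302), were identical at 25.1% of aligned positions, and their longest identical coding stretch had 14 bases, shorter than a read of 50 bases.

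**Figure D2:**
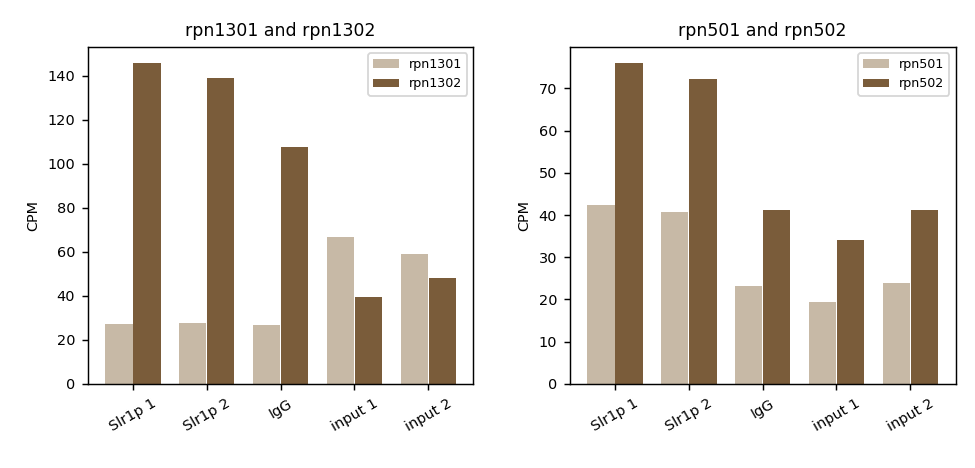
Bars give the level (CPM) of both genes of each duplicated subunit in each of the 5 libraries: rpn1301 and rpn1302 on the left, rpn501 and rpn502 on the right. The larger gene of the Rpn13 pair is rpn1302 in the 3 precipitated libraries and rpn1301 in both input libraries, while rpn502 exceeds rpn501 in all 5.

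The lid genes rpn501 (SPAC1420.03) and rpn502 (SPAPB8E5.02c) both encode the scaffold subunit Rpn5, and they moved together. Their proteins are identical over all 443 residues and their coding sequences match at 1330 of 1332 bases, so reads could be assigned to 1 gene mainly from outside the coding sequence and both values are uncertain. The rpn501 gene took 35.8% and 36.0% of the pair's reads with Slr1p, 36.0% in IgG and 36.3% and 36.8% in input. Summed over the pair, levels were 118.5 and 112.9 CPM with Slr1p, 64.3 CPM in IgG, and 53.4 and 65.0 CPM in input. As listed, rpn502 was the highest lid gene against input, at 76.1 and 72.2 CPM with Slr1p and 34.0 and 41.1 CPM in input (log2 0.98, SE 0.13, adjusted p = 4.36e-06), and rpn501 was at 0.94. Against IgG they were at 0.85 and 0.84.

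Over the lid 3 of 10 rose, 4 fell and 3 were not called, with a median of -0.17. The lowest was rpn8 (SPCC1682.10), the partner of Rpn11 in the lid, at 205.6 and 200.3 CPM with Slr1p and 398.2 and 351.1 CPM in input (log2 -0.89, SE 0.13, adjusted p = 1.31e-05). The third riser beside the Rpn5 genes was dss1 (0.72), and the other falls were rpn9 (-0.63), rpn11 (-0.56) and rpn6 (-0.27). The fall of rpn11 did not pass when Slr1p replicate 2 was dropped (-0.54, adjusted p = 0.0569). That of rpn6 did not pass when replicate 1 or 2 was dropped (-0.27 and -0.30, adjusted p = 0.332 and 0.278).

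The scaffold genes rpn2 (0.17) and mts4 (0.02), which were lower than in IgG, were not called against input. The ubiquitin receptor gene rpn10 was higher, at 165.9 and 164.9 CPM with Slr1p and 96.6 and 110.5 CPM in input (log2 0.68, SE 0.12, adjusted p = 1.20e-04). A share of 71.0% of its span lies opposite the noncoding RNA SPNCRNA.999, which held at most 1.82 CPM in any library. Among the other regulators 4 of 6 rose and 1 fell. The mRNA of nas2 stood at 37.3 and 36.6 CPM with Slr1p and 16.6 and 19.3 CPM in input (log2 1.04, SE 0.13, adjusted p = 3.50e-06). The 1 that fell was SPCC18.17c, annotated as a non-ATPase regulatory subunit, at 24.4 and 22.3 CPM with Slr1p and 48.2 and 45.1 CPM in input (log2 -0.997, SE 0.12, adjusted p = 2.97e-06). The genes fub1 (0.79), cut8 (0.44) and fub2 (1.31) made up the rest. With Slr1p replicate 1 dropped, cut8 (0.33, adjusted p = 0.200) and fub2 (1.12, adjusted p = 0.0779) did not pass, and DESeq2 did not call fub2 (1.30, adjusted p = 0.121). A neighbour on the opposite strand, SPAC17C9.12, covers 70.0% of cut8 and stood at 98.8 and 98.9 CPM with Slr1p, 51.2 CPM in IgG, and 83.8 and 84.1 CPM in input. Noncoding RNAs cover 85.8% of nas2, 80.7% of fub2 and 53.9% of fub1 on the opposite strand, and that of fub2, at 1.05 to 1.30 CPM, held more reads than fub2 itself. The strand setting of the counting is not known, so a share of such reads in these members was not tested.

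**Figure D3:**
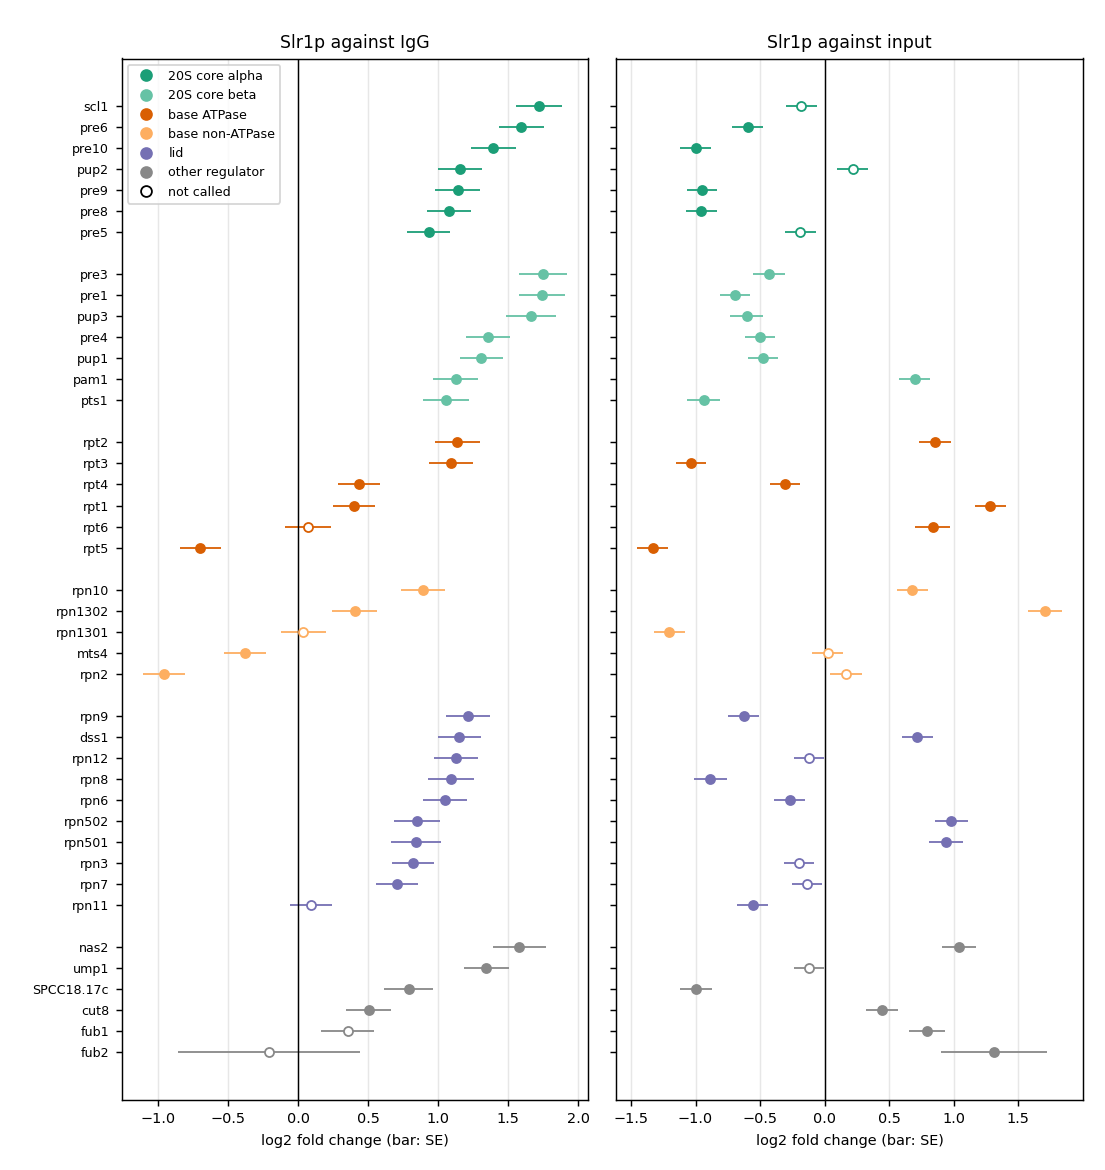
Log2 fold change of each proteasome mRNA for Slr1p against IgG (left) and Slr1p against input (right), with bars of 1 SE and colours by class. Filled points passed an adjusted p of 0.05 and open points did not; all 14 core genes lie right of 0 against IgG, and 12 of them left of 0 against input.

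Both comparisons share the Slr1p libraries, so the values for IgG against input stand beside them. In IgG, 6 of 41 members were higher than in input and 29 lower, where 34.1% of all genes were higher and 36.5% lower. All 14 core genes were lower in IgG than in input, from -2.44 for pre1 to -0.43 for pam1, with a median of -2.01. After the adjustment for length and GC 12 were lower (core median -1.40), and pup2 (-0.25) and pam1 (0.28) were not called. With abundance as well 12 were lower and pam1 was called higher (0.39). The call of pam1 was lost without either Slr1p library, which leaves the IgG and input libraries as they were (-0.42 in both cases, adjusted p = 0.120 and 0.119). The base had 5 of 11 higher, namely rpn1302 (1.30), rpn2 (1.12), rpt1 (0.88), rpt6 (0.76) and mts4 (0.40), and 4 lower. The lid had 0 of 10 higher and 8 lower, but 3 higher and 6 lower after the adjustment for length and GC, when rpn501 (0.58), rpn502 (0.61) and dss1 (0.38, against -0.43 without it) were called higher in IgG. Counted over both Slr1p comparisons, 10 members were higher than both controls (pam1, rpt1, rpt2, rpn10, rpn1302, rpn501, rpn502, dss1, cut8 and nas2), 16 were higher than IgG and lower than input, and only rpt5 was lower than both. After the adjustment for length and GC 6 members were higher than both controls (pam1, rpt2, mts4, rpn501, rpn502 and nas2), and with abundance as well 5 were, without pam1. Of the 10, rpt2, rpn501, rpn502 and nas2 were called higher than both under every alternative planned. The share of all genes with each pair of calls was not counted, so these joint counts have no background beside them.

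Transcript length went with the comparison with IgG. Across all 4978 nuclear protein-coding genes tested, Spearman's rho between annotated transcript length and the log2 fold change against IgG was -0.67, and across the 41 members it was -0.64. Genes are not independent replicates, and all points share the same libraries. For Slr1p against input the values were -0.08 over all those genes and -0.26 over the members. For IgG against input they were 0.491 and 0.195. Members were short, with a median of 1305 bases (1155 for the core) against 1699 bases for all those genes.

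Of the members, 28 had an annotated transcript under 1500 bases and 13 a longer one. Against IgG, 25 of the 28 short members were higher (89.3%) and 0 lower, with a median of 1.13. Of the 2097 short protein-coding genes tested 65.9% were higher and 9.92% lower, with a median of 0.76. Among the 13 long members 8 were higher (61.5%) and 3 lower, with a median of 0.43, against 11.7% higher, 54.4% lower and a median of -0.50 over the 2881 long genes. In bins of transcript length, 33 of 41 members lay above the median of the protein-coding genes of their bin. The long core gene pre8 (2047 bases) was at 1.07, in a bin from 2000 to 2500 bases whose median was -0.40. Several long members sit near the limit, with rpt1, rpt2, rpt4, cut8 and rpn1301 between 1507 and 1533 bases.

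Against input, length separated the members less. The short members had 10 higher and 12 lower and a median of -0.16, where short genes as a whole had 39.2% higher, 33.8% lower and a median of 0.09. The long members had 3 higher and 7 lower and a median of -0.31, where long genes had 28.9% higher, 42.6% lower and a median of -0.15. In bins of length, 17 of 41 members lay above the median of their bin. Within the short members the core and the base differed in their counts: of 13 short core genes 1 rose and 9 fell, while all 3 short base genes (rpt6, rpn10 and rpn1302) rose. No test of that contrast was made. In IgG against input, 3 short members were higher and 21 lower, where short genes had 17.3% higher and 57.8% lower, and 3 long members were higher and 8 lower, where long genes had 48.6% higher and 26% lower.

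**Figure D4:**
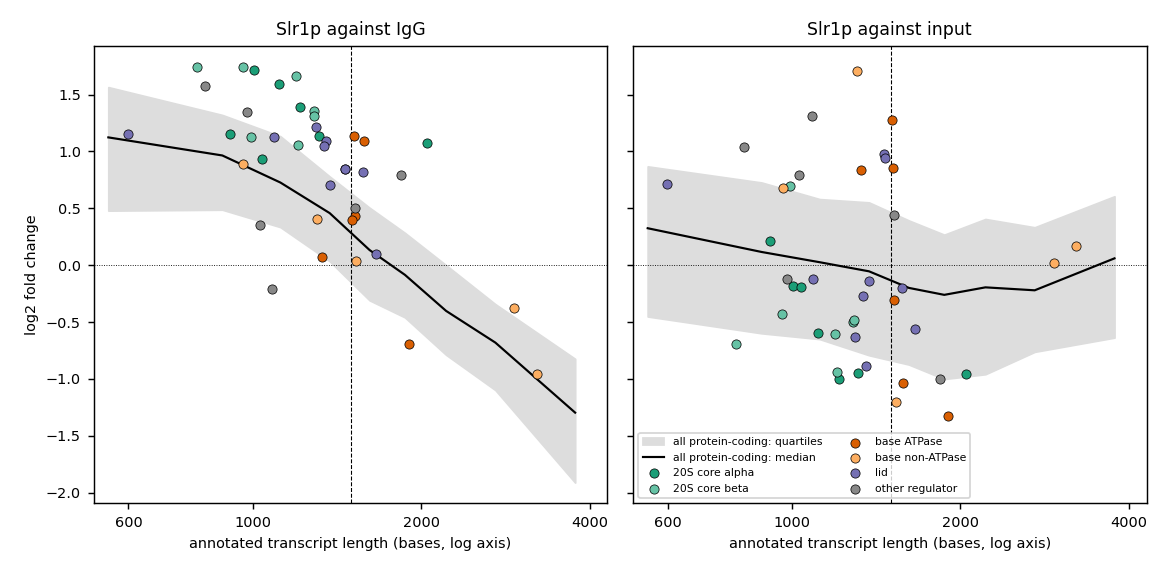
Log2 fold change against annotated transcript length (bases, log axis) for Slr1p against IgG (left) and against input (right). Coloured points are the 41 members by class, the line and the grey band are the median and quartiles of all protein-coding genes in bins of length, and the dashed line marks 1500 bases; on the left the band falls with length and 33 members lie above the median of their bin, on the right 17 do.

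After the adjustment for length and GC, 28 of 41 members (68.3%) were still called higher than IgG and 1 lower, with a median of 0.59. The core then had 14 of 14 higher (median 0.90), the lid 8 of 10 (median 0.59) and the base 3 of 11 with 1 lower (median 0.17). With mean abundance adjusted for as well, 23 members were higher and 2 lower, of which 11 in the core, 6 in the lid and 3 in the base were higher. Over all protein-coding genes, the shares called higher and lower in both adjusted fits were below the 34.0% and 32.3% of all genes without adjustment. The counts within classes have no background of their own. The adjustment for length and GC ended the calls of rpt1 (0.31, adjusted p = 0.0735), rpt4 (0.26, 0.128), rpn10, rpn1302 (0.12, 0.551), dss1 and cut8 (0.33, 0.0704), while mts4 was then called higher. Adding abundance ended 5 more, those of pre5 (0.27, adjusted p = 0.0938), pam1 (0.27, 0.139), pts1 (0.23, 0.161), rpn12 (0.26, 0.135) and rpn7 (0.20, 0.183). The long core gene pre8 then had the largest value of any member, 1.27. The same adjustments left the core at 1 higher and 10 lower against input (medians -0.43 and -0.55), and the falls of rpt4 (-0.056, adjusted p = 0.639) and rpn6 (-0.094, adjusted p = 0.427) from input did not pass after the adjustment for length and GC.

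Per kilobase of transcript, core mRNAs were more even in input than after precipitation. The highest core level per kilobase was 2.90 and 2.36 times the lowest in the input libraries, 3.62 and 4.03 times with Slr1p and 4.34 times in IgG, and pre9 was the lowest in every library. The coefficient of variation over the 14 genes was 37.3% and 38.9% with Slr1p, 44.9% in IgG, and 32.9% and 27.1% in input. For the 6 ATPase genes the ratio of highest to lowest was 8.86 and 9.69 with Slr1p, 4.09 in IgG, and 2.73 and 2.47 in input. For the 5 non-ATPase genes of the base it was 9.8 and 9.54 with Slr1p, 9.36 in IgG, and 3.34 and 3.12 in input. By this ratio the lid went the other way, with 8.88 and 10.1 with Slr1p, 7.64 in IgG, and 22.3 and 15.9 in input. Its lowest gene was rpn501 in every library, whose value is uncertain. By the coefficient of variation the lid did not separate Slr1p from input. That was 58.7% and 64.7% with Slr1p, 54.3% in IgG, and 64.9% and 57.8% in input. Summed without scaling by length, the core made up 37.1% and 37.6% of proteasome CPM with Slr1p, 23.6% in IgG, and 46.7% and 44.8% in input.

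Other genes of the ubiquitin and proteasome pathway behaved differently from gene to gene. Of 42 listed genes outside the members, 16 were higher than in IgG (38.1%) and 22 lower (52.4%), beside 34.0% and 32.3% of all genes. The 42 include dph1 (SPBC3B8.05), listed by its name as a shuttle factor but annotated as a diphthamide biosynthesis protein. Against input 13 were higher (31.0%) and 17 lower (40.5%), near the 35.0% and 34.2% of all genes. The 5 ubiquitin genes had 4 higher and 1 lower against IgG. The ubiquitin gene with the opposite direction was ubi4, at 6.60 and 8.55 CPM with Slr1p and 23.0 CPM in IgG (log2 -1.60, SE 0.19, adjusted p = 3.08e-06). Against input it was at -1.48. The anaphase-promoting complex, a ubiquitin ligase of the cell cycle, had 4 of 13 higher and 9 lower against IgG, and 4 higher and 7 lower against input. The E2 and E3 enzymes had 3 of 12 higher and 9 lower against IgG, and 5 each way against input. The long gene ubr11 (6636 bases) was at -2.04 against IgG and 0.89 against input, but the lowest of the 42 against IgG was the short apc13 (468 bases, -4.47), at 0.168 and 0.228 CPM with Slr1p and 4.43 CPM in IgG.

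Among genes that work directly on the proteasome, the 3 whose product carries the word chaperone were mostly lower. The gene ecm29 (5413 bases) was at -1.97 against IgG and 0.28 against input (adjusted p = 2.01e-08 and 0.0642), pac3 at -1.85 and -2.58, and pac4 at 0.76 and -1.06. Of the 9 genes listed for the ubiquitin-activating enzyme, shuttle factors, the Cdc48 complex and proteasome-bound deubiquitinases, 4 were higher and 1 lower than IgG, and 2 were higher and 2 lower than input. Among the 4 higher was dph1, annotated as a diphthamide biosynthesis protein and so outside these categories (log2 0.44, edgeR adjusted p = 0.0268). The shuttle factor gene rhp23 stood at 171.3 and 168.0 CPM with Slr1p, 73.9 CPM in IgG and 140.2 and 151.3 CPM in input (log2 1.198 against IgG, SE 0.16, adjusted p = 6.65e-06). The gene npl4, for a cofactor of the segregase Cdc48, stood at 30.5 and 28.6 CPM with Slr1p, 28.3 CPM in IgG and 123.0 and 112.8 CPM in input (log2 -1.996 against input, SE 0.12, adjusted p = 1.45e-09), so that both kinds of precipitation lay below both input libraries.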

How the data were processed

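The authors deposited unnormalized counts of reads for each gene, in 1 file per library. Tools named in the submitters' processing notes are HTSeq 0.6.1p2, STAR 2.6.0c, Trim Galore, bcl2fastq 2.20 and FastQC 0.11.5. The labels describe a directional kit and paired reads of 50 bases. Not given in the sources used here are the build, the annotation, the strand setting and the treatment of reads with several hits.

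Product names, lengths, GC content and 5′ ends came from RefSeq assembly ASM294v3. Of 6727 identifiers 6562 matched, all 41 members among them. In that annotation 20 members overlap a counted gene on the opposite strand and 3 one on the same strand, so their reads may be shared.

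edgeR 4.0.16 (R 4.3.3) tested the counts (quasi-likelihood test) after TMM scaling, with edgeR's default expression filter (6376 genes left) and 1 mean per group over all 5 libraries, on 2 residual degrees of freedom. The IgG library was taken to vary like the replicated groups. Benjamini-Hochberg adjustment ran over all tested genes, and an adjusted p under 0.05 was called. The test was checked on simulated data. Lists of genes are described by counts and medians, with no test. Trends with transcript length and GC content, or with abundance as well, were fitted as smooth terms per library over protein-coding genes (mgcv 1.9.3) and removed as offsets. DESeq2 1.42.0 was an alternative.

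Per the titles, Slr1p and input each have a pair of biological replicates. Both pairs differed by more than sampling noise (chi-square per degree of freedom 44.4 and 194.0). Nothing else says that they came from separate cultures, so p-values measure the spread between these libraries.

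The members, lists and tests were chosen with earlier results of these data known. Every member may be named. Values in each library are given for the highest and lowest of each class in both Slr1p comparisons and for duplicated subunits, and other values were chosen after they were seen.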

Additional observations from a re-analysis of the deposited data

How the results depend on the processing

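The IgG library had the fewest counts (12882920) and no replicate. Leaving out 1 replicated library gave 29 to 34 members higher and 2 to 3 lower than IgG, 11 to 15 higher and 13 to 22 lower than input, and 4 to 7 higher and 26 to 31 lower in IgG than in input. With the length and GC trend removed 1 member was lower than IgG, in place of 3, and 10 were higher in IgG than in input, or 12 with abundance in the trend as well, in place of 6. Counts over all 41 members otherwise stayed within 1.5 times under DESeq2, library totals alone, no filter, protein-coding genes alone and no IgG library. Counts within classes moved more. Base genes higher than IgG numbered 3 in place of 6 with library totals alone, without either Slr1p library and with either trend removed. Lid genes lower than input numbered 2 in place of 4 without Slr1p replicate 2, and other regulators higher than input 2 in place of 4 without Slr1p replicate 1. With the replicate number as a block, Slr1p against input gave 13 higher and 17 lower, losing rpt4 (-0.31, adjusted p = 0.0551) and rpn6 (-0.27, adjusted p = 0.0840). The labels give these libraries a shared number and no shared batch, and the deviations of same-numbered libraries correlated at -0.16. A crossed pairing, added after seeing the data, gave 13 and 19. Of the members' calls, 22 of 33 higher and 1 of 3 lower than IgG, and 11 of 13 higher and 13 of 19 lower than input, held under every alternative planned at the outset.

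Signs changed for the following, where the cause was not tested. Against IgG, library totals alone gave rpt6 -0.047, rpn1301 -0.083 and rpn11 -0.024. Removal of the length and GC trend gave rpt6 -0.23, rpn1301 -0.17, fub1 -0.28, rpn2 0.14 and mts4 0.57. With abundance in the trend as well, rpt6 was at -0.40, rpn1301 at -0.27, rpn11 at -0.25, fub1 at -0.10, rpn10 at -0.071 and mts4 at 0.42. Against input, mts4 ranged over -0.015 to 0.053 when single libraries were left out (-0.006 without Slr1p replicate 1), and removal of the length and GC trend gave rpn3 0.075 and rpn7 0.061. In IgG against input, that removal gave pam1 0.28, rpt2 0.028, rpn10 0.54, mts4 -0.30, dss1 0.38, cut8 0.37 and nas2 0.28. With abundance as well they were 0.39, 0.18, 0.64, -0.097, 0.41, 0.36 and 0.25. Library totals alone gave cut8 0.054, leaving out single libraries gave it -0.13 to 0.031, and gave rpn501 -0.032 to 0.26.

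Splitting the members at a coding length of 1000 bases in place of a transcript length of 1500 gave medians against IgG of 1.14 for short and 0.75 for long members, and against input of -0.43 and -0.058.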
